A study of Mus musculus with 7 samples.

Results

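Cajal-Retzius cells were followed through the first week of primary hippocampal culture. A cell was counted as a member where it held at least 2 unique molecular identifiers (UMIs) of Reln, at least 2 UMIs of Trp73, Lhx1 and Lhx5 together, and at most 1 UMI of Gad1 and Gad2 together. Members were thus chosen by their measured UMI counts of these 6 genes. The rule found 260 cells among the 26709 that passed a filter on detected genes (500 or more) and on mitochondrial UMIs (10% or less). The cultures were made from hippocampi of newborn (P0) mice, dissociated with trypsin and plated on poly-D-lysine. They were sampled after 1, 3, 5 and 7 days in vitro (DIV), with 1 library at DIV1 and 2 libraries at each later day. All groups share this origin, and the labels give no strain, genotype or treatment. Replicates are not said to come from separate cultures, so p-values measure the spread between libraries, which may be technical. The design text says that cells were sorted, without saying how, and the labels list neurons together with glial and other cell types.

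Cajal-Retzius cells are early-born neurons of the marginal zone, and in the hippocampus they line the fissure and the outer molecular layers. They secrete reelin, which binds the receptors encoded by Lrp8 and Vldlr on other neurons and acts through the adaptor Dab1. In mice most of those of the hippocampus come from the cortical hem and express the p53 relative Trp73, and most Cajal-Retzius cells of the neocortex die in the first postnatal weeks while part of the hippocampal ones live longer.

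The 7 libraries held 3009 to 5401 barcodes and 36226566 to 114119537 UMIs. The members numbered 102 (DIV1), 19 and 8 (DIV3), 41 and 32 (DIV5) and 40 and 18 (DIV7), where the values of a day are those of replicates 1 and 2 in this order throughout. DIV3 replicate 2, with 8 members, was below the 10 cells asked of a sum for a test, so fits use 6 libraries and DIV3 has 1 library in them. The median member had 12621 UMIs, and the medians of the libraries ran between 11420.5 and 14479 UMIs. No member barcode was found among the members of another library, while any 2 libraries shared 12 to 37 barcodes of all kinds. Scrublet called none of the members a doublet, and 14 members were among the top doublet scores. Levels are UMIs of a gene per 1000000 UMIs (CPM) of the sum of a class in a library, and tests are edgeR's quasi-likelihood tests, with p-values adjusted by the Benjamini-Hochberg method over all genes tested.

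The label was checked on genes that the rule did not use. Of 8 such markers (Ndnf, Nhlh2, Cacna2d2, Slc17a6, Lhx1os, Ebf3, Calb2 and Car10), the median member held UMIs of 7, and 247 of 260 members held at least 5. Lhx1os neighbours the rule gene Lhx1 and is not independent of it, and no other class was scored on the 8. The 8 belong to a marker list chosen with earlier results of these data known. Among listed markers outside the 8, Zic1 was detected in 69.6% of members, Tbr1 in 68.1%, Cdkn1a in 55.4% and Cxcr4 in 40.0%. Eomes was detected in 6.92%, against 1.86% of pyramidal-type and 11.9% of dentate-type neurons. Ndnf, a secreted neurotrophic factor, was detected in 255 members (98.1%, exact binomial 95% interval 95.6% to 99.4%), against 21 of 2258 pyramidal-type neurons (0.930%). Cacna2d2, an auxiliary calcium channel subunit, was detected in 250 members (96.2%), against 72 pyramidal-type neurons (3.19%). The transcription factor gene Ebf3 was detected in 169 members (65.0%), against 9 pyramidal-type neurons (0.399%). Slc17a6, which encodes the vesicular glutamate transporter VGLUT2, was detected in 239 members (91.9%), against 679 pyramidal-type neurons (30.1%). The median pyramidal-type neuron had 6128.5 UMIs at DIV1 and 13815 to 21717 UMIs later, so at the later days the low shares were not met at lower depth. Calb2, which encodes calretinin and is a common stain for Cajal-Retzius cells, was detected in 179 members (68.8%), against 1233 pyramidal-type neurons (54.6%) and 1123 of 1561 dentate-type neurons (71.9%), so detection of Calb2 separated the classes far less than that of Ndnf. In the summed levels Calb2 was higher than in pyramidal-type neurons (log2 0.72 ± 0.14 (SE), adjusted p = 0.00268), a call lost under a stricter cell filter (1000 or more detected genes and 5% or less mitochondrial UMIs), and did not pass against dentate-type neurons (-0.24 ± 0.29 (SE), adjusted p = 0.576). Slc32a1, the vesicular GABA transporter gene, had 1 UMI in 1 member. Intervals cover counting error only.

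The rule genes are described without a test. Lhx1 was detected in 234 members, Trp73 in 206 and Lhx5 in 185, and 132 members held all 3. At DIV1, 46 of 102 members had no Trp73 UMI, and in the later libraries 0 to 3 members each lacked it. Reln stood at 1070.5 CPM (DIV1), 1580.0 and 2634 (DIV3), 3391 and 3601 (DIV5), and 3788 and 3429.7 CPM (DIV7), and the median member held 14 (DIV1), 27 and 32 (DIV3), 39 and 44.5 (DIV5), and 50.5 and 51.5 Reln UMIs (DIV7). Just inside the rule, 42 members held exactly 2 UMIs of Trp73, Lhx1 and Lhx5 and had 358 CPM of Ndnf. Just outside it, 40 cells with 1 such UMI had 337 CPM of Ndnf, and 129 cells with none had 78.9 CPM. Of these, 33 of the 40 and 50 of the 129 were in the DIV1 library, where the cells with none had 189 CPM of Ndnf, against 0 to 39.8 CPM in the later libraries. On the Reln side the edge was sharper, with 2 members at exactly 2 UMIs and 10 cells outside with 1, which had 6.80 CPM of Ndnf. Beyond the Gad1 and Gad2 limit lay 7 cells, with 155 CPM of Ndnf.

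Part of the DIV1 members also held transcripts of other hippocampal neurons, more often than members of later days. At least 2 UMIs of genes of other hippocampal neurons (among them Neurod6, Neurod2, Prox1 and Slc17a7) were found in 41 members, of which 33 were in the DIV1 library. These 33 had a median of 17117 UMIs, against 9745 UMIs in the other DIV1 members, and they held 205 of the 208 Neurod6 UMIs of the DIV1 members. The summed level of 18 pyramidal markers was 3095 CPM in the DIV1 members and 992 to 1391 CPM in those of later days. In pyramidal-type neurons, which were chosen by Neurod6 of this list, it was 6034 to 6745 CPM. Results over days were therefore also computed without these 41 members. Among markers of other cells, the microglial list summed to 693.5 CPM in DIV1 members and to 13.4 to 106 CPM later, and 83 of the 84 C1qa UMIs at DIV1 lay in 5 members. The ciliated list summed to 219 to 640 CPM in members, against 26.4 to 90.2 CPM in pyramidal-type neurons. Its leading gene was Mia, at 135 to 364 CPM in members against 5.77 to 23.1 CPM in pyramidal-type neurons, while the cilia gene Tmem212 was at 0 in members of 6 of 7 libraries. The astrocyte list summed to 1199 to 5298 CPM in members and 1375 to 5228 CPM in pyramidal-type neurons. Its UMIs were spread unevenly over members. In DIV7 replicate 1 single members held 1032, 593 and 378 of them, and the others 9 to 41 each. A member of DIV3 replicate 1 held 639, and a member of DIV5 replicate 1 held 708 and no UMI of the 8 markers outside the rule. The GABAergic list reached at most 105 CPM in members, against at least 2105 CPM in GABAergic cells. This list holds Gad1 and Gad2, which the rule limits in members and by which GABAergic cells were chosen. The gap was thus set in part by the selection and is no check of the label.

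Among all cells, the share of Cajal-Retzius cells was high at DIV1, low at DIV3 and intermediate later. The DIV1 library had 2.49% (95% interval by the exact binomial method 2.03% to 3.01%). The DIV3 libraries had 0.369% and 0.282%, the DIV5 libraries 0.953% and 0.828%, and the DIV7 libraries 1.35% and 0.512%. The means were 0.326% ± 0.0619 at DIV3, 0.891% ± 0.0885 at DIV5 and 0.933% ± 0.595 at DIV7 (SD, n = 2 each). No relation with day was found over the 7 libraries (Pearson r = -0.357, exact two-sided permutation p = 0.451, and Spearman rho = 0.0551, p = 0.908). Without the DIV1 library r was 0.668 (exact permutation p = 0.156), so the sign of this value rested on that library. The height of the DIV1 share also depended on the settings. With each cell thinned to 5000 UMIs it was 1.36% at DIV1 and 1.18% and 0.541% at DIV7 (r = -0.0274). Under a stricter member rule (at least 3 UMIs on each count, no Gad1 or Gad2 UMI) it was 1.51% at DIV1 and 1.32% and 0.484% at DIV7 (r = -0.0702).

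Among neuron-class cells (members plus pyramidal-type, dentate-type and GABAergic cells) the share was lowest at DIV3 and highest at DIV7. It was 6.48% in the DIV1 library (102 of 1574 cells). The DIV3 libraries had 2.04% and 1.74% (19 of 930 and 8 of 461), the DIV5 libraries 6.94% and 6.15% (41 of 591 and 32 of 520), and the DIV7 libraries 12.1% and 17.1% (40 of 331 and 18 of 105). Pyramidal-type neurons numbered 868 (DIV1), 352 and 281 (DIV3), 308 and 272 (DIV5), and 131 and 46 (DIV7), so the denominator shrank while the count of members at DIV7 lay within the range of the earlier libraries. Over all 7 libraries r was 0.752 (exact permutation p = 0.0508, adjusted over the 2 shares 0.102) and rho was 0.734 (p = 0.0698, adjusted 0.140), which misses the threshold. Without the DIV1 library r was 0.951 (exact permutation p = 0.0222, adjusted 0.0444), and with each cell thinned to 5000 UMIs it was 0.832 (exact permutation p = 0.0190, adjusted 0.0381). When the DIV1 library and a further library among those farthest from the median day were left out, r was 0.937 to 0.996 for neuron-class cells and 0.462 to 0.991 for all cells.

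**Figure D1:**
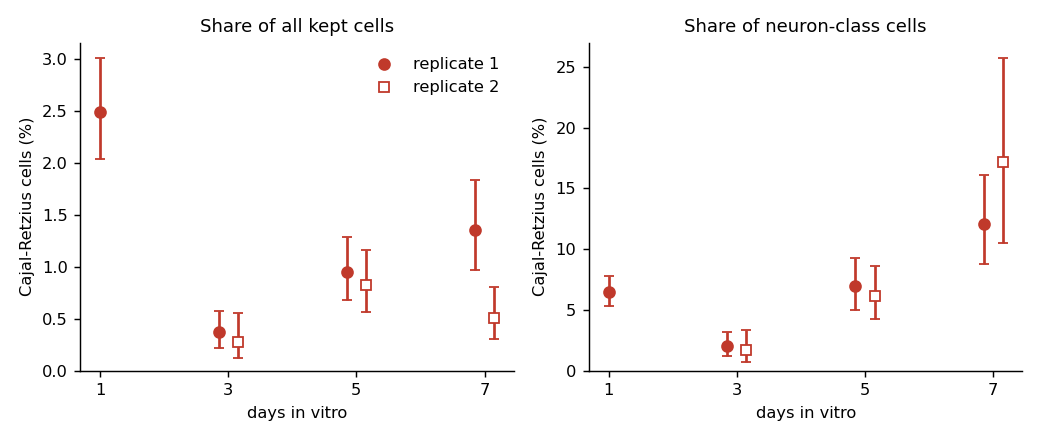
Share of Cajal-Retzius cells (%, vertical axes) against days in vitro, among all kept cells (left) and among neuron-class cells (right). Each point is a library with its exact binomial 95% interval, filled circles are replicate 1 and open squares replicate 2, with the DIV1 library, which the labels do not number, drawn as a filled circle; the right panel shows 2.04% and 1.74% (DIV3), 6.94% and 6.15% (DIV5), and 12.1% and 17.1% (DIV7).

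Cajal-Retzius cells were first compared with pyramidal-type neurons (Neurod6 at least 2 UMIs, no Prox1 UMI) of the same 6 libraries, with the library as a block. Of 8892 genes tested, 1612 were higher (18.1%) and 1749 lower (19.7%) in Cajal-Retzius cells at an adjusted p under 0.05, 37.8% in all, and the median log2 fold change of all genes was near 0. Of 33 Cajal-Retzius markers outside the rule, 29 were tested, of which 24 were higher and 3 lower, with a median log2 fold change of 2.57. These markers were listed from knowledge of the cell type, with earlier results of these data known. Their direction is thus only a partial check of the label. The list also holds Lhx1os, which is not independent of the rule. Against dentate-type neurons (Prox1 at least 2 UMIs with Neurod1 and Neurod2), which share the same Cajal-Retzius sums, 31.5% of 7747 genes passed the test (15.7% higher and 15.8% lower), and 22 of 27 markers tested were higher and none lower. A fitted fold of a gene near 0 in a class depends on the prior count of the fit.

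Ndnf had 395 CPM (DIV1), 495 and 1228 (DIV3), 1009 and 1006 (DIV5), and 1432 and 1192 CPM (DIV7) in Cajal-Retzius cells, against 0 to 6.21 CPM in pyramidal-type and 0 to 2.46 CPM in dentate-type neurons. The groups did not overlap in any library (log2 fold change 9.07 ± 0.87 (SE), adjusted p = 0.000428 against pyramidal-type, and 9.64 ± 0.32 (SE), adjusted p = 1.16e-08 against dentate-type neurons). Cacna2d2 had 219.8 CPM (DIV1), 231 and 403 (DIV3), 420.3 and 377 (DIV5), and 469.6 and 441 CPM (DIV7), against 0.418 to 7.59 CPM in pyramidal-type neurons (log2 6.94 ± 0.57 (SE), adjusted p = 0.00011). Nhlh2, a basic helix-loop-helix factor, had 276 to 1040.4 CPM in Cajal-Retzius cells and 23.95 to 42.6 CPM in pyramidal-type neurons (log2 4.29 ± 0.29 (SE), adjusted p = 9.11e-06). Among the other listed markers that were higher, Barhl2 stood at 7.84 on the log2 scale, Ebf3 at 7.20, Mab21l1 at 6.69, Tbr1 at 2.57 and Nr2f2 at 2.32. The listed markers that were lower are not named here, so these folds come from the higher side only. Lhx1os, at 89.2 to 931 CPM, is the opposite-strand neighbour of the rule gene Lhx1 and is no independent marker.

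Of 34 patterning genes of the cortical hem and forebrain, 18 were tested against pyramidal-type neurons, 10 higher and 7 lower (median log2 1.72). Over all genes tested, 18.1% were higher and 19.7% lower. Higher were the zinc-finger genes Zic1 (log2 4.89), Zic4 (5.69) and Zic5 (4.06) and the homeobox gene Emx2 (2.16), and lower were Emx1 (-1.60) and Lhx2 (-1.04). Zic1 had 77.6 to 131 CPM, against 1.46 to 9.79 CPM in pyramidal-type and 7.59 to 44.3 CPM in dentate-type neurons, and the groups did not overlap (log2 4.89 ± 0.33 (SE), adjusted p = 2.56e-06, and 2.23 ± 0.25 (SE), adjusted p = 5.04e-05 against dentate-type neurons).

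**Figure D2:**
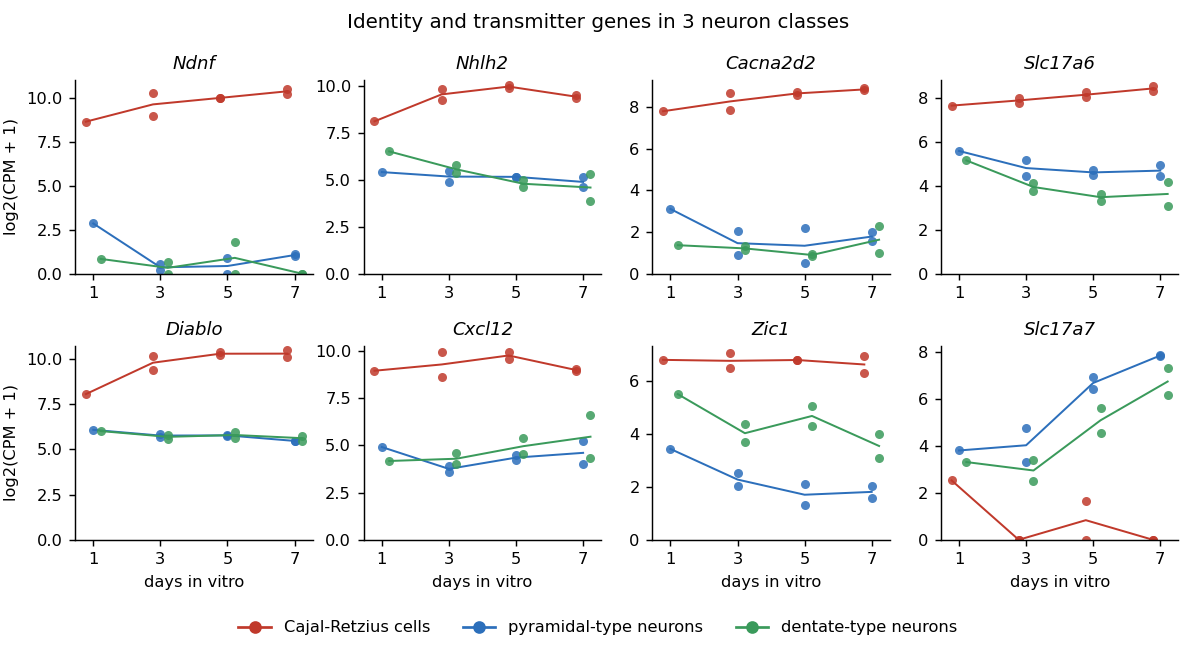
Levels as log2(CPM + 1) (vertical axes) against days in vitro of 8 identity and transmitter genes in Cajal-Retzius cells, pyramidal-type and dentate-type neurons; each point is a library and lines join the means of each day. Ndnf, Nhlh2, Cacna2d2, Slc17a6, Diablo, Cxcl12 and Zic1 lie above the other classes in Cajal-Retzius cells within each of the 7 libraries, and Slc17a7 lies below.

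Pnoc, which encodes the precursor of the peptide nociceptin, had 240.2 CPM (DIV1), 338 and 334 (DIV3), 304 and 356 (DIV5), and 426 and 469.5 CPM (DIV7) in Cajal-Retzius cells, against 0 to 4.69 CPM in pyramidal-type neurons (log2 8.21 ± 0.71 (SE), adjusted p = 0.000156). Pnoc was detected in 216 of 260 members. Gdf5, a growth factor of the BMP family, had 104 to 353 CPM against 0 to 6.76 CPM (log2 7.34 ± 0.62 (SE), adjusted p = 0.000118). Pthlh, the parathyroid hormone-related protein gene, was higher by 7.36, Serpina3f by 6.93 and Samd3 by 7.29 on the log2 scale. Cxcl12, the ligand of the chemokine receptor CXCR4, had 495 CPM (DIV1), 395 and 983 (DIV3), 759 and 990.2 (DIV5), and 529 and 490.0 CPM (DIV7) in Cajal-Retzius cells, against 11.1 to 35.9 CPM in pyramidal-type neurons (log2 4.77 ± 0.26 (SE), adjusted p = 1.1e-06). Cxcl12 was detected in 249 of 260 members. The fibroblast and meningeal list, which holds Cxcl12, summed to 559 to 1416 CPM in members and 103 to 398 CPM in pyramidal-type neurons, while the meningeal collagen gene Col1a1 stood at 4.36 to 33.5 CPM in members and 7.31 to 55.3 CPM in pyramidal-type neurons. The receptor gene Cxcr4 had 36.1 CPM (DIV1), 3.35 and 19.7 (DIV3), 124 and 113 (DIV5), and 38.3 and 61.2 CPM (DIV7), against 3.18 to 13.6 CPM in pyramidal-type neurons (log2 2.73 ± 0.33 (SE), adjusted p = 0.000136), with the lowest value, 1 UMI, in DIV3 replicate 1.

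Of 41 genes of the reelin pathway outside the rule, 35 were tested against pyramidal-type neurons, 3 higher and 17 lower, with a median log2 fold change of -0.45. Over all genes tested, 18.1% were higher and 19.7% lower in this comparison. Without DIV5 replicate 2 the count of lower genes was 11, and without DIV3 replicate 1 or DIV7 replicate 1 that of higher genes was 1. Dab1, the adaptor phosphorylated when reelin binds, had 46.96 CPM (DIV1), 46.9 and 39.3 (DIV3), 9.68 and 10.9 (DIV5), and 1.92 and 16.3 CPM (DIV7) in Cajal-Retzius cells, against 79.2 to 126 CPM in pyramidal-type neurons (log2 -2.23 ± 0.49 (SE), adjusted p = 0.008). The kinase gene Fyn stood at -1.60 and the receptor gene Lrp8 at -0.74 on the log2 scale, both lower (adjusted p = 0.00103 and 0.00678). The second receptor gene, Vldlr, had 16.3 to 46.9 CPM in Cajal-Retzius cells and 24.03 to 41.3 CPM in pyramidal-type neurons and did not pass the test (log2 -0.32 ± 0.27 (SE), adjusted p = 0.379). Within Cajal-Retzius cells Dab1 fell with day (slope -0.50 ± 0.11 (SE), adjusted p = 0.0158 per day on the log2 scale), a call lost in 5 of 15 alternatives, among them without DIV1 and without DIV7 replicate 1. Without the 41 members with UMIs of other neurons Dab1 was below the count filter, and its level was 6.83 CPM (DIV1), 19.9 and 39.3 (DIV3), 4.27 and 9.13 (DIV5), and 2.12 and 16.3 CPM (DIV7). Against dentate-type neurons 2 of 33 pathway genes tested were higher and 6 lower, where 15.7% and 15.8% of all genes tested were higher and lower.

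Transcripts of the vesicular glutamate transporters differed in opposite directions between the classes. Slc17a6 had 200.1 CPM (DIV1), 218 and 255 (DIV3), 263 and 303 (DIV5), and 316 and 376 CPM (DIV7), against 20.5 to 47.04 CPM in pyramidal-type and 7.59 to 34.6 CPM in dentate-type neurons, without overlap (log2 3.30 ± 0.24 (SE), adjusted p = 4.09e-06, and 4.01 ± 0.33 (SE), adjusted p = 1.54e-05 against dentate-type neurons). Slc17a7, the VGLUT1 gene, had 7 UMIs (DIV1), 0 and 0 (DIV3), 0 and 1 (DIV5), and 0 and 0 UMIs (DIV7) in Cajal-Retzius cells, against 12.97 CPM (DIV1), 8.83 and 26.002 (DIV3), 84.1 and 122 (DIV5), and 232 and 227 CPM (DIV7) in pyramidal-type neurons (log2 -5.10 ± 0.80 (SE), adjusted p = 0.00209). It was detected in 7 members (2.69%), against 705 pyramidal-type neurons (31.2%). In the chloride group the extruder gene Slc12a5 (KCC2) had 6 UMIs (DIV1), 0 and 0 (DIV3), 5 and 1 (DIV5), and 1 and 0 UMIs (DIV7) in Cajal-Retzius cells, while its level in pyramidal-type neurons was 2.35 CPM (DIV1), 5.07 and 8.52 (DIV3), 32.6 and 35.5 (DIV5), and 58.3 and 72.2 CPM (DIV7). It did not reach the count filter of the test. The importer gene Slc12a2 (NKCC1) had 0 to 20.4 CPM in Cajal-Retzius cells and 11.001 to 30.4 CPM in pyramidal-type neurons and did not pass (log2 -0.52 ± 0.29 (SE), adjusted p = 0.173).

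Of 37 glutamate receptor genes, 24 were tested against pyramidal-type neurons, 3 higher and 14 lower (median log2 -1.27), and against dentate-type neurons 5 of 18 were higher and 9 lower. The shares over all genes tested were 18.1% higher and 19.7% lower against pyramidal-type neurons, and 15.7% and 15.8% against dentate-type neurons. Without DIV7 replicate 2 the first count of higher genes was 5, and against dentate-type neurons the count of lower genes was 4 without DIV5 replicate 1, and that of higher genes was 3 without each of DIV1, DIV3 replicate 1, DIV5 replicate 1 and DIV7 replicate 1 in turn. The 3 genes higher than in pyramidal-type neurons were Grik1, a kainate receptor subunit (log2 5.60 ± 0.58 (SE), adjusted p = 8.36e-05), the AMPA receptor subunit gene Gria4 (2.83 ± 0.33 (SE), adjusted p = 0.000116) and Cacng5, an AMPA receptor auxiliary protein (3.23 ± 0.30 (SE), adjusted p = 2.06e-05). Grik1 had 0 to 61.3 CPM in Cajal-Retzius cells, with 0 in DIV3 replicate 2, against 0 to 1.24 CPM in pyramidal-type neurons. The NMDA receptor gene Grin2b had 129 CPM (DIV1), 26.8 and 19.7 (DIV3), 17.4 and 4.36 (DIV5), and 0 and 4.08 CPM (DIV7) in Cajal-Retzius cells, against 281 CPM (DIV1), 375 and 561 (DIV3), 738 and 584 (DIV5), and 793 and 838 CPM (DIV7) in pyramidal-type neurons (log2 -4.77 ± 0.97 (SE), adjusted p = 0.00905). Of its 189 UMIs in DIV1 members 178 lay in the 33 members with UMIs of other neurons, and without them the DIV1 level was 15.0 CPM. Grin2a had 51 UMIs (DIV1), 1 and 0 (DIV3), 4 and 0 (DIV5), and 0 and 0 UMIs (DIV7) in Cajal-Retzius cells, against 46.03 to 116 CPM in pyramidal-type neurons (log2 -3.24 ± 0.75 (SE), adjusted p = 0.0119). The obligatory NMDA subunit gene Grin1 was present, at 46.3 to 108 CPM in Cajal-Retzius cells and 32.3 to 105 CPM in pyramidal-type neurons. Grm5, a metabotropic receptor gene, was at -3.94 on the log2 scale (adjusted p = 0.0171, and 0.0571 at most over its alternatives, without DIV7 replicate 2 or the count filter).

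Of 43 postsynaptic genes of scaffolds and signalling, 35 were tested against pyramidal-type neurons, 5 higher and 25 lower (median log2 -0.96), where 18.1% of all genes tested were higher and 19.7% lower. The count of higher genes was 2 or 3 without each of the DIV3, DIV5 and DIV7 libraries in turn. Camk2a, the forebrain calcium/calmodulin kinase gene, had 4 UMIs (DIV1), 0 and 0 (DIV3), 4 and 0 (DIV5), and 6 and 0 UMIs (DIV7) in Cajal-Retzius cells, against 8.69 CPM (DIV1), 18.1 and 31.03 (DIV3), 82.6 and 92.5 (DIV5), and 245 and 174 CPM (DIV7) in pyramidal-type neurons (log2 -4.27 ± 0.52 (SE), adjusted p = 0.000267). Camk2b had 43.5 to 131 CPM against 191 to 666 CPM (log2 -2.48 ± 0.38 (SE), adjusted p = 0.00166). Nrgn, which encodes the calmodulin-binding protein neurogranin, had 23.1 CPM (DIV1), 70.3 and 0 (DIV3), 25.2 and 8.72 (DIV5), and 1.92 and 0 CPM (DIV7) in Cajal-Retzius cells, against 55.5 CPM (DIV1), 156 and 109 (DIV3), 826 and 920.4 (DIV5), and 1386 and 1245 CPM (DIV7) in pyramidal-type neurons (log2 -4.50 ± 1.14 (SE), adjusted p = 0.0207). The Nrgn call was lost without DIV5 replicate 1 or DIV7 replicate 2 (highest adjusted p 0.0725). Of GABA and glycine receptor genes, 15 of 26 were tested, 1 higher and 7 lower. Gabra5 was at -3.26 and Gabra2 at -2.53 on the log2 scale, and Glrb, the glycine receptor beta subunit gene, was at 0.59 (adjusted p = 0.0225), a call lost in 4 of 15 alternatives, among them without DIV3 replicate 1 and without each DIV5 replicate.

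Of 66 presynaptic genes, 51 were tested against pyramidal-type and 49 against dentate-type neurons. Over all genes tested, 18.1% were higher and 19.7% lower than in pyramidal-type neurons, and 15.7% and 15.8% than in dentate-type neurons. Of the presynaptic genes 8 were higher and 20 lower than in pyramidal-type neurons (median log2 -0.41). Against dentate-type neurons 13 were higher and 6 lower (median 0.15). Without the DIV1 library the counts of lower genes were 31 and 12, and without DIV5 replicate 1 the count of genes higher than in pyramidal-type neurons was 4. Dnm1, the vesicle-endocytosis dynamin gene, had 42.2 CPM (DIV1), 43.5 and 78.6 (DIV3), 63.9 and 74.2 (DIV5), and 102 and 118 CPM (DIV7) in Cajal-Retzius cells, against 9.93 to 55.1 CPM in pyramidal-type and 6.03 to 37.95 CPM in dentate-type neurons (log2 1.18 ± 0.21 (SE), adjusted p = 0.00148, and 1.80 ± 0.23 (SE), adjusted p = 0.000129 against dentate-type neurons). Chgb, a protein of dense-core vesicles, was higher by 1.91 and Sv2a by 0.62 on the log2 scale against pyramidal-type neurons. The complexin genes Cplx1 (-1.29) and Cplx2 (-2.52) and Stx1a (-0.96) were lower. The calcium sensor gene Syt1 was higher by 0.995 against dentate-type neurons (adjusted p = 0.000941), while its 0.38 against pyramidal-type neurons lost its call in 6 of 15 alternatives, among them without each of the fitted DIV3, DIV5 and DIV7 libraries in turn.

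Among 61 ion channel genes 42 were tested against pyramidal-type neurons, 10 higher and 19 lower, with 12 lower without DIV5 replicate 2 or DIV7 replicate 1. Kcnip2, a subunit of A-type potassium channels, had 17.01 CPM (DIV1), 63.6 and 128 (DIV3), 182 and 179 (DIV5), and 255 and 184 CPM (DIV7) in Cajal-Retzius cells, against 0.828 to 20.1 CPM in pyramidal-type neurons (log2 4.53 ± 0.32 (SE), adjusted p = 3.35e-06). Hcn4, a pacemaker channel gene, had 29.9 to 128 CPM against 9.61 to 13.4 CPM (log2 2.02 ± 0.32 (SE), adjusted p = 0.000982), and the sodium channel beta subunit gene Scn2b was higher by 1.74. Of the 64 guidance and migration genes 46 were tested, 9 higher and 25 lower. Over all genes tested 18.1% were higher and 19.7% lower, so the 9 higher guidance genes lay near the share of all genes. Unc5b, a netrin receptor gene (log2 4.38), and Robo2, a slit receptor gene (2.98), were higher, and the semaphorin receptor gene Nrp1 (-3.42) and the ephrin receptor gene Epha4 (-3.66) were lower. Of the 41 genes of axon growth and immature neurons 37 were tested, 4 higher and 26 lower, with Dcx, the microtubule protein of young neurons, at -4.26 and Nefl, a neurofilament gene, at -4.77 on the log2 scale.

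**Figure D3:**
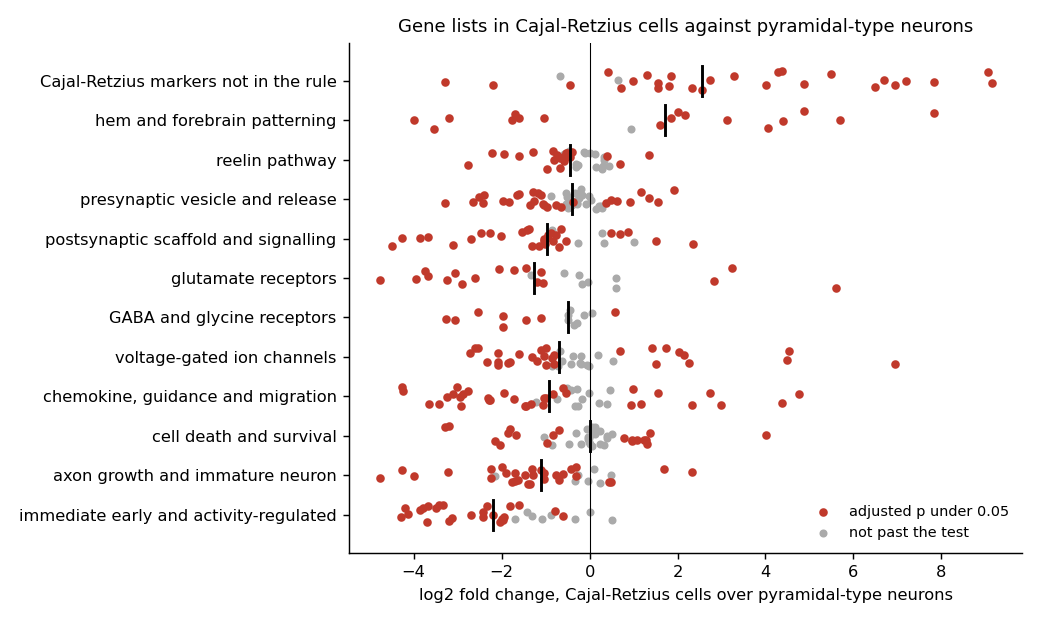
Log2 fold change of Cajal-Retzius cells over pyramidal-type neurons (horizontal axis) for each tested gene of 12 lists (rows); red points passed an adjusted p of 0.05, grey points did not, and black bars are medians. The marker list lies to the right (median 2.57) and the immediate early list to the left (median -2.19).

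Of 55 genes of cell death and survival, 41 were tested against pyramidal-type neurons, and the median log2 fold change was near 0. Of these 9 were higher and 10 lower, near the shares over all genes tested (18.1% and 19.7%). Without DIV5 replicate 2 the count of lower genes was 6. Diablo, whose mitochondrial product antagonises inhibitors of apoptosis and which is a listed Cajal-Retzius marker, had 265 CPM (DIV1), 679.5 and 1149.7 (DIV3), 1334 and 1167 (DIV5), and 1106 and 1417 CPM (DIV7) in Cajal-Retzius cells, against 43.1 to 66.5 CPM in pyramidal-type and 43.5 to 63.5 CPM in dentate-type neurons (log2 4.01 ± 0.42 (SE), adjusted p = 0.000367). The groups did not overlap. Xiap, the inhibitor that DIABLO binds, was also higher, at 48.3 to 88.4 CPM against 19.8 to 35.4 CPM in pyramidal-type neurons (log2 0.97 ± 0.19 (SE), adjusted p = 0.00316). Mdm2, the ubiquitin ligase of p53, had 58.5 CPM (DIV1), 60.3 and 49.1 (DIV3), 81.3 and 93.8 (DIV5), and 119 and 139 CPM (DIV7), against 24.9 to 52.3 CPM in pyramidal-type neurons (log2 1.38 ± 0.26 (SE), adjusted p = 0.00254). Higher too was the nuclease gene Endog (1.28). The p53 target Cdkn1a was at 1.31 (adjusted p = 0.0253), a call lost in 5 of 15 alternatives, among them without the DIV1 library, DIV5 replicate 1 or DIV7 replicate 1. Bcl2l11 (-1.68) and Hrk (-3.28), genes of pro-apoptotic BH3-only proteins, and the survival gene Mcl1 (-0.83) were lower. Bcl2l11 lost its call in 6 of 15 alternatives, among them without each of the fitted DIV3, DIV5 and DIV7 libraries in turn, Hrk in 5 (without either DIV5 library or DIV7 replicate 2) and Mcl1 in 3 (without DIV5 replicate 2 or DIV7 replicate 1).

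The immediate early and activity-regulated genes were lower in Cajal-Retzius cells where they passed the test. These genes are transcribed after synaptic activity and calcium entry in many neurons. Of 38 listed, 33 were tested against pyramidal-type neurons, and 25 were lower and none higher (median log2 -2.19). Against dentate-type neurons 19 of 27 tested were lower and none higher. Over all genes tested, 19.7% were lower than in pyramidal-type neurons and 15.8% lower than in dentate-type neurons. With DIV1 left out 25 of 28 were lower than in pyramidal-type neurons, and without the 41 members with UMIs of other neurons 22 of 29. Over the 15 alternatives 14 to 29 were lower than in pyramidal-type neurons and none higher, with 14 of 27 under the stricter cell filter. Against dentate-type neurons 8 to 32 were lower and at most 1 higher, with 8 lower under the stricter cell filter, 10 and 9 without DIV5 replicate 1 and 2, and 11 and 8 without DIV7 replicate 1 and 2. The summed level of the list was 2341 CPM (DIV1), 1557 and 1032 (DIV3), 1443 and 1025 (DIV5) and 1389.7 and 1131 CPM (DIV7) in Cajal-Retzius cells, against 2930 CPM (DIV1), 2433 and 7558 (DIV3), 6257 and 11320 (DIV5) and 10366 and 11072 CPM (DIV7) in pyramidal-type neurons. In pyramidal-type neurons replicate 2 stood above replicate 1 at each day with 2 libraries, and in Cajal-Retzius cells below it.

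Fos had 135 CPM (DIV1), 97.1 and 108 (DIV3), 92.96 and 47.98 (DIV5), and 36.4 and 36.7 CPM (DIV7) in Cajal-Retzius cells, against 260.5 CPM (DIV1), 163 and 1027 (DIV3), 489 and 1545 (DIV5), and 1015 and 1547 CPM (DIV7) in pyramidal-type neurons. The groups did not overlap within any library (log2 -3.12 ± 0.79 (SE), adjusted p = 0.0206), and the call was lost without DIV7 replicate 2 (highest adjusted p over the alternatives 0.0741). Npas4, a transcription factor gene induced by calcium entry, had 33 UMIs (DIV1), 1 and 0 (DIV3), 21 and 2 (DIV5), and 3 and 1 UMIs (DIV7) in Cajal-Retzius cells, against 45.1 CPM (DIV1), 45.2 and 435 (DIV3), 367 and 684 (DIV5), and 639 and 779 CPM (DIV7) in pyramidal-type neurons (log2 -4.28 ± 0.90 (SE), adjusted p = 0.0102). Nr4a1 had 0 to 24.5 CPM against 49.6 to 311 CPM (log2 -3.68 ± 0.65 (SE), adjusted p = 0.00405), and Bdnf, the neurotrophin gene, 9.58 to 89.8 CPM against 144 to 451 CPM (log2 -3.19 ± 0.68 (SE), adjusted p = 0.00992). Egr1 (-3.49) and Junb (-3.33) were lower too, and each lost its call without each of the 4 libraries of DIV5 and DIV7 in turn. Egr1 was not lower in DIV3 replicate 1 (26.8 CPM in Cajal-Retzius cells against 15.5 CPM in pyramidal-type neurons), nor Junb at DIV1 (75.5 CPM against 74.5 CPM).

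**Figure D4:**
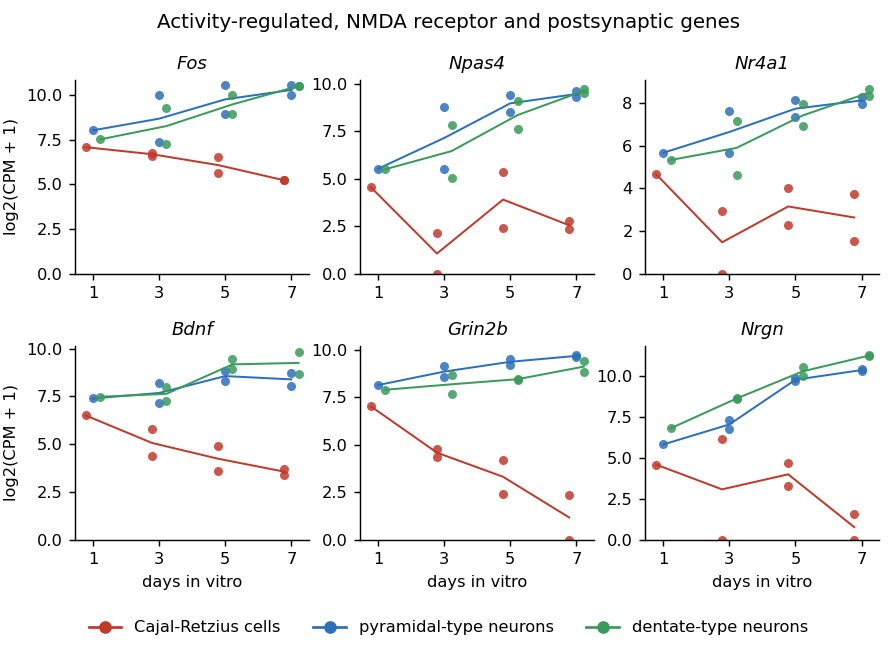
Levels as log2(CPM + 1) (vertical axes) against days in vitro of Fos, Npas4, Nr4a1, Bdnf, Grin2b and Nrgn in Cajal-Retzius cells, pyramidal-type and dentate-type neurons; each point is a library and lines join the means of each day. At DIV7 the Cajal-Retzius points lie below those of both other classes in each panel.

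Whether the change with day differed between classes was tested as an interaction, set against pyramidal-type and dentate-type neurons summed. The slope per day over all days was added after the data had been seen, since DIV3 has 1 library. Of 9210 genes tested, 12.7% had a different slope in Cajal-Retzius cells (4.07% higher and 8.64% lower). The slope was lower for 23 of 33 immediate early genes, 19 of 35 postsynaptic genes, 19 of 52 presynaptic genes and 13 of 25 glutamate receptor genes, and higher for none of these. Without the DIV1 library it was lower for 2 of 29, 3 of 35, 0 of 49 and 1 of 22 in these lists, and without the 41 members with UMIs of other neurons for 11 of 29, 9 of 34, 8 of 50 and 2 of 23. The slope of Grin2b was lower on the log2 scale per day (difference in slope -1.23 ± 0.09 (SE), adjusted p = 1.12e-07), and this call held in the 15 alternatives run. Bdnf (-0.81 ± 0.08 (SE), adjusted p = 4.51e-06) and Nrgn (-1.17 ± 0.19 (SE), adjusted p = 0.0091) also had a lower slope. When the DIV1 library was left out 47 genes passed, and of 14 named genes Grin2b, Bdnf and Nrgn passed. Without the 41 members with UMIs of other neurons 434 genes passed, and Bdnf no longer passed. The Nrgn slope lost its call without DIV7 replicate 2 and under the stricter cell filter (highest adjusted p over the alternatives 0.0994). DIV1 members were those with the high share of such cells, with 94.2% of their Grin2b UMIs, 91.7% of their Bdnf UMIs and 93.9% of their Npas4 UMIs in 33 of 102 members. These 33 had a median of 17117 UMIs, against 9745 UMIs in the other DIV1 members. Their share of all UMIs was thus larger than their share of members. Among the other members Npas4 had 2 UMIs at DIV1, and Fos 84.6 CPM at DIV1 and 23.3 and 36.7 CPM at DIV7.

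Within Cajal-Retzius cells, 511 of 7923 genes changed with day when a slope was fitted over the 6 libraries (6.45%, with 2.5% rising and 3.95% falling). Without the DIV1 library 29 genes passed, and 20 of the 405 genes retested did so again, with 398 of them keeping their sign. Without the 41 members with UMIs of other neurons 306 passed. With the replicate number as a block 369 passed, 318 of them among the 511. Of 29 tested Cajal-Retzius markers outside the rule 7 rose and none fell, and 1 of 28 rose without the DIV1 library. Without the 41 members with UMIs of other neurons 5 of 30 rose, and Ndnf, Clstn2, Edil3 and Diablo were among the genes that passed (slopes 0.25, 0.31, 0.36 and 0.30). Ndnf had 395 CPM (DIV1), 495 and 1228 (DIV3), 1009 and 1006 (DIV5), and 1432 and 1192 CPM (DIV7) (slope 0.31 ± 0.04 (SE), adjusted p = 0.000812 per day on the log2 scale). Clstn2, a calsyntenin gene, had 176 CPM (DIV1), 214 and 364 (DIV3), 430.0 and 493 (DIV5), and 587 and 604 CPM (DIV7) (slope 0.31 ± 0.05 (SE), adjusted p = 0.0014), and without the DIV1 library neither Ndnf nor Clstn2 passed (adjusted p 0.054 and 0.0844). Edil3, an extracellular matrix gene, had 80.98 CPM (DIV1), 66.95 and 216 (DIV3), 189.8 and 196 (DIV5), and 326 and 302 CPM (DIV7) (slope 0.36 ± 0.06 (SE), adjusted p = 0.00163), and it passed in the 16 alternatives run, without DIV1 too. Diablo rose with a slope of 0.35, a call lost without the DIV1 library and with the 8-cell library in the fit. Calb2 (slope 0.16 ± 0.08 (SE), adjusted p = 0.335), Cxcr4 (0.19 ± 0.22 (SE), adjusted p = 0.719), Slc17a6 (0.13 ± 0.05 (SE), adjusted p = 0.104) and Vldlr (-0.19 ± 0.08 (SE), adjusted p = 0.184) did not pass.

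Beyond the markers, rising genes came from several groups. Islr had 16.3 CPM (DIV1), 83.7 and 108 (DIV3), 159 and 107 (DIV5), and 270.3 and 269 CPM (DIV7) (slope 0.60 ± 0.08 (SE), adjusted p = 0.000237) and passed in the 16 alternatives run. Vsnl1, which encodes the calcium sensor visinin-like protein 1, had 11.6 CPM (DIV1), 6.695 and 49.1 (DIV3), 50.4 and 80.7 (DIV5), and 95.8 and 159 CPM (DIV7) (slope 0.61 ± 0.09 (SE), adjusted p = 0.00133), with DIV7 above the DIV5 and DIV3 libraries. Agt, the angiotensinogen gene, had 2.72 CPM (DIV1), 6.695 and 19.7 (DIV3), 52.3 and 43.6 (DIV5), and 55.6 and 89.8 CPM (DIV7) (slope 0.71), and Il34, a ligand of the microglial receptor encoded by Csf1r, had 3.403 CPM (DIV1), 6.695 and 39.3 (DIV3), 19.4 and 32.7 (DIV5), and 36.4 and 77.6 CPM (DIV7) (slope 0.65). In pyramidal-type neurons Agt reached at most 2.005 CPM and Il34 at most 2.32 CPM. Stra6, the retinol-binding protein receptor gene (slope 0.79), was detected in 40 of 260 members and lost its call without DIV7 replicate 1 as well. Of 34 ion channel genes tested 5 rose and 3 fell, where 2.5% of all genes tested rose and 3.95% fell. The risers were Scn2b (slope 0.70), Kcnip2 (0.58), Kcnip4 (0.57), Cacna2d1 (0.29) and Cacna2d2 (0.19). Of 50 presynaptic genes 4 rose and none fell, namely Syt1 (0.33), Sncb (0.27), Dnm1 (0.24) and Syn2 (0.21), and the AMPA receptor gene Gria1 (0.33) was the only riser among 18 glutamate receptor genes. Leaving out the DIV1 library, none of Vsnl1, Agt, Il34, Stra6, these channel and presynaptic genes or Gria1 passed, in a fit that had 5 libraries. Without the 41 members with UMIs of other neurons Kcnip4, Cacna2d2 and Dnm1 lost their calls (adjusted p 0.193, 0.158 and 0.0627), while the other genes of this paragraph kept theirs. Calls were lost in 7 of 16 alternatives for Dnm1, 6 for Syn2, 5 for Cacna2d2, 4 for Kcnip4 and 3 for Sncb, among them without a DIV7 library. With the replicate block the adjusted p was 0.0621 for Dnm1, 0.0549 for Syn2 and 0.0812 for Sncb.

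Of 35 genes of axon growth and immature neurons tested, 8 fell and 1 rose, and 3 of 35 fell without the DIV1 library. Over all genes tested, with the DIV1 library, 3.95% fell and 2.5% rose. Sox11, a transcription factor gene of newborn neurons, had 838 CPM (DIV1), 147 and 19.7 (DIV3), 67.8 and 13.1 (DIV5), and 19.2 and 4.08 CPM (DIV7) (slope -1.01 ± 0.11 (SE), adjusted p = 0.00133). At DIV1 92.0% of its UMIs lay in the 33 members with UMIs of other neurons, and without such members the levels were 135 CPM (DIV1), 75.7 and 19.7 (DIV3), 21.3 and 13.7 (DIV5), and 19.1 and 4.08 CPM (DIV7). Dcx had 280.4 CPM (DIV1), 23.4 and 0 (DIV3), 29.1 and 6.54 (DIV5), and 7.67 and 8.17 CPM (DIV7) (slope -0.91 ± 0.11 (SE), adjusted p = 0.000677), with 91.7% of its DIV1 UMIs in the same 33 members. Mex3a, an RNA-binding protein gene, had 147 CPM (DIV1), 33.5 and 9.83 (DIV3), 17.4 and 15.3 (DIV5), and 1.92 and 4.08 CPM (DIV7) (slope -0.85 ± 0.08 (SE), adjusted p = 2.01e-05), and without those members 71.0 CPM at DIV1 and 2.12 and 4.08 at DIV7. Sox11, Dcx and Mex3a kept their calls without those members and lost them without the DIV1 library. Sox4 and Neurod1 (slopes -0.46 and -0.79) lost theirs without those members. Of the pyramidal markers 9 of 16 tested fell and 1 rose, and none of the 7 tested without those members passed in either direction.

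Some falls from DIV1 lay in few cells. The chemokine genes Cxcl2 (slope -2.55) and Cxcl1 (-1.65) had the steepest fall of those named, but 426 of the 514 Cxcl2 UMIs at DIV1 came from 1 member and 229 of the 267 Cxcl1 UMIs from 1 member. The microglial genes C1qa (slope -1.099) and Tyrobp (-1.06) fell with them, with 84 and 125 UMIs in 6 and 9 DIV1 members, and DESeq2 gave no call for Cxcl2 or C1qa. Of 38 death and survival genes tested 2 rose and 8 fell, where 2.5% of all genes tested rose and 3.95% fell, and none of 35 passed without the DIV1 library. Of these, Cdkn1a, a cell-cycle inhibitor gene, did not pass (slope -0.35 ± 0.14 (SE), adjusted p = 0.226).

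**Figure D5:**
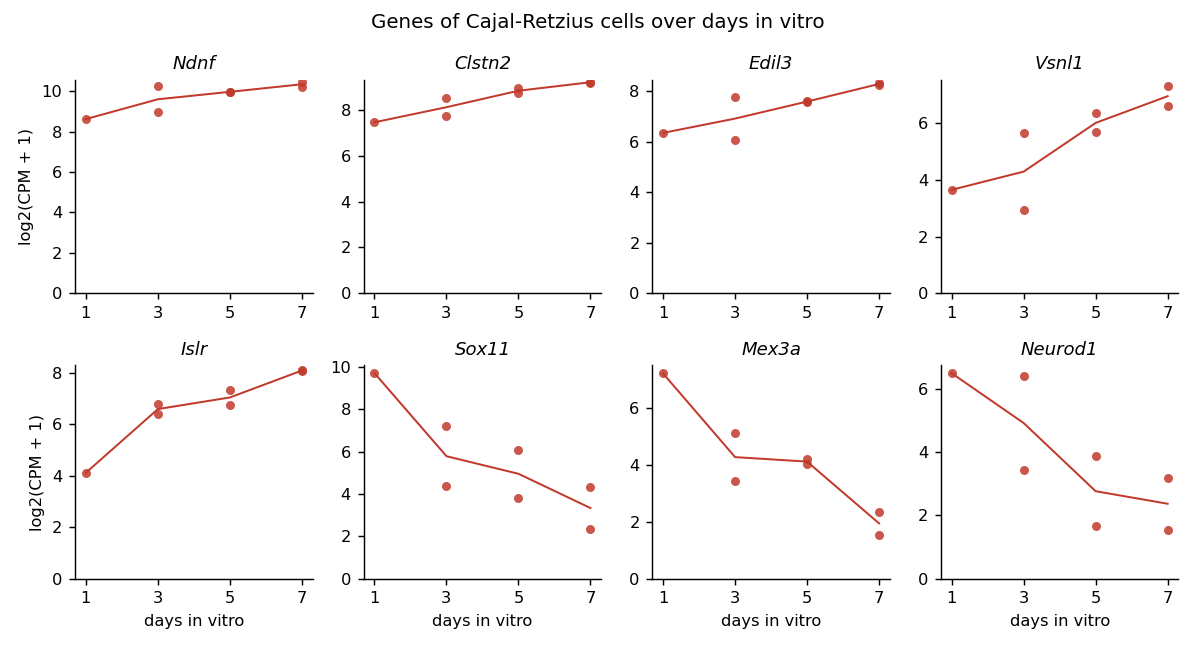
Levels in Cajal-Retzius cells as log2(CPM + 1) (vertical axes) against days in vitro of 5 genes that rose with day (Ndnf, Clstn2, Edil3, Vsnl1, Islr) and 3 that fell (Sox11, Mex3a, Neurod1); each point is a library and lines join the means of each day. For Islr and Edil3 both DIV7 points lie above the DIV5 points, and for Sox11 the DIV1 point lies above all others.

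DIV7 was also set directly against DIV3, with 2 libraries at DIV7 and 1 at DIV3 in the fit and 2 residual degrees of freedom. A replicate block in the same fit leaves fewer still, so calls from it rest on less measured spread between libraries. Of 7923 genes 21 passed (0.265%), 2 higher (0.0252%) and 19 lower (0.24%), and 807 had an unadjusted p under 0.05. With the replicate number as a block 567 passed, 247 higher and 320 lower, among them the 21, and with the 8-cell DIV3 library added to the blocked fit 130 passed, 69 higher and 61 lower. Vsnl1 had 95.8 and 159 CPM at DIV7 against 6.695 and 49.1 CPM at DIV3 (log2 fold change 4.12 ± 0.79 (SE), adjusted p = 0.0312), and Edil3 326 and 302 CPM at DIV7 against 66.95 and 216 CPM at DIV3 (log2 2.19 ± 0.40 (SE), adjusted p = 0.0256). In both genes the days did not overlap, the 8-cell DIV3 library included. With that library in the fit 12 genes passed, 7 of them among the 21, and neither Vsnl1 (adjusted p 0.134) nor Edil3 (0.235) did. Ndnf (1.36 ± 0.28 (SE), adjusted p = 0.05005), Clstn2 (1.43 ± 0.32 (SE), adjusted p = 0.06), Islr (1.64 ± 0.42 (SE), adjusted p = 0.0989) and Diablo (0.84 ± 0.28 (SE), adjusted p = 0.247) did not pass, although Ndnf and Clstn2 each passed in 10 of 16 alternatives. With the replicate block the log2 fold changes were 1.43 for Ndnf, 1.38 for Clstn2, 1.76 for Islr and 0.80 for Diablo. The 4 genes gained a call there, in a fit with 1 DIV3 library and few residual degrees of freedom. With the 8-cell library in the blocked fit Clstn2 (adjusted p 0.0143) and Islr (0.00467) passed, and Ndnf (0.258) and Diablo (0.411) did not. No list of metabolic genes was counted, and of the enzyme genes that fell Fdps, Fdft1 and Acat2 were chosen after their values were seen. Mvd, the mevalonate diphosphate decarboxylase gene, had 65.2 and 48.996 CPM at DIV7 against 285 and 197 CPM at DIV3 (log2 -2.32 ± 0.37 (SE), adjusted p = 0.013). Fdps, the farnesyl diphosphate synthase gene, had 178 and 355 CPM at DIV7 against 1014 and 727 CPM at DIV3 (log2 -2.004 ± 0.34 (SE), adjusted p = 0.0254), and Acat2 (-1.82) and Fdft1 (-1.92) fell too. Mvd, Fdps and the sodium pump regulator gene Fxyd6 (-2.27) passed in the 16 alternatives run. In pyramidal-type neurons Fdps stood at 224 and 256 CPM at DIV7 against 979 and 565 CPM at DIV3, and Mvd at 53.7 and 58.1 CPM against 151 and 71.5 CPM, so the level was lower at DIV7 in both classes.

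Other genes lower at DIV7 included Nnat, an imprinted proteolipid gene, with 671 and 327 CPM at DIV7 against 3207 and 1366 CPM at DIV3 (log2 -2.71 ± 0.35 (SE), adjusted p = 0.013). The BMP target gene Id1 had 32.6 and 4.08 CPM at DIV7 against 211 and 78.6 CPM at DIV3 (log2 -3.28 ± 0.56 (SE), adjusted p = 0.0254). Neurod1 had 1.92 and 8.17 CPM at DIV7 against 83.7 and 9.83 CPM at DIV3 (log2 -4.36 ± 0.82 (SE), adjusted p = 0.0312), and Nrgn 1.92 and 0 CPM at DIV7 against 70.3 and 0 CPM at DIV3 (log2 -5.59 ± 1.003 (SE), adjusted p = 0.0254). All 21 Nrgn UMIs of the larger DIV3 library lay in 2 members with UMIs of other neurons, and without such members Nrgn was at 0 in both DIV3 libraries and below the count filter. Of the 25 Neurod1 UMIs of that library 19 lay in these 2 members, and without such members the Neurod1 call was lost (log2 -2.42 ± 1.44 (SE), adjusted p = 0.574). In Nrgn the days overlapped once the 8-cell library was counted, and the call was lost with that library in the fit, as were those of Nnat, Id1, Neurod1 and the genes named next. The same library lay among or below the DIV7 values for Ccnd2 (38.3 and 20.4 CPM at DIV7 against 177 and 0 CPM at DIV3), Acta2 (15.3 and 8.17 CPM at DIV7 against 121 and 0 CPM at DIV3), S100a11 (21.1 and 12.2 CPM at DIV7 against 167 and 9.83 CPM at DIV3) and Arpc1b (7.67 and 0 CPM at DIV7 against 70.3 and 0 CPM at DIV3). Among these Acta2 is a smooth muscle actin, and mural markers summed to 99.7 and 102 CPM in members at DIV7 against 194 and 39.3 CPM at DIV3. The part of such cells in these falls was not tested. The interaction of this contrast with class gave 0.565% of 9210 genes, among them Nrgn (-8.41 ± 0.81 (SE), adjusted p = 4.7e-06), Junb (-4.40 ± 0.55 (SE), adjusted p = 0.000257), Bdnf (-3.99 ± 0.65 (SE), adjusted p = 0.00353) and Grin2b (-5.59 ± 1.097 (SE), adjusted p = 0.0195), each with a more negative change in Cajal-Retzius cells than in the other glutamatergic neurons. Without members with UMIs of other neurons the Nrgn value turned to 2.58 ± 7.49 (SE) (adjusted p = 0.934) and the Grin2b call was lost (-4.42 ± 1.40 (SE), adjusted p = 0.104), while Junb (-4.27) and Bdnf (-3.72) passed. Without DIV7 replicate 2 the interaction gave 4 genes in place of 52.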

How the data were processed

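Single-cell RNA-seq (10x 3′ v2) was run on 7 libraries of cultured mouse hippocampal cells. The authors deposited matrices of UMI counts per gene and barcode; Cell Ranger 4.0.0 and the mm9 build are named per the submitters' processing notes, while the file headers name software 3.0.2. A cell was kept where it had 500 or more detected genes and a mitochondrial share of UMIs of 10% or less. Members were found by the stated counts of UMIs, and the members and gene lists were chosen with earlier results of these data known. Levels in CPM were computed from these deposited counts, summed per class and library.

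Sums of at least 10 cells were tested with edgeR 4.0.16 (R 4.3.3) by its quasi-likelihood test, with TMM scaling and the default low-count filter. Class comparisons had the library as a block, and the tests over days had none. SEs were taken from the fold change and the F statistic. DESeq2 1.42.0 was an alternative, and Scrublet (scanpy 1.11.5) scored doublets. Scripts were tested on simulated data. Genes were named by a rule: the 10 largest rises and 10 largest falls among called genes with at least 20 CPM, up to 4 genes of each list by p, markers outside the rule, and a set of textbook genes. For the largest changes, DIV7 and DIV3 libraries could not overlap, nor for the slope DIV5 and DIV7 libraries with those of DIV1 and DIV3. Class comparisons asked for the same direction in every library, and the interaction tests had no such condition. Deviations of same-numbered replicates from their day means correlated at 0.400 between DIV5 and DIV7 over 5030 genes. They correlated only weakly between DIV3 and DIV5 (0.120) and between DIV3 and DIV7 (0.108). The replicate block took the number to pair the libraries, for which the DIV3 values give little ground. The labels do not say what the number marks. They give the DIV1 library no number, and it was counted as replicate 1 in the blocked slope fit. Shares were tested by exact permutation of Pearson and Spearman correlations with day. Intervals are exact binomial (Clopper-Pearson) and cover counting error only. Results for some genes are not reported here.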

Additional observations from a re-analysis of the deposited data

Results flagged for a closer look

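The genes below changed with day differently in Cajal-Retzius cells than in the pyramidal-type and dentate-type neurons summed, by edgeR's interaction test with adjustment over all genes tested. Differences are on the log2 scale, Cajal-Retzius cells minus the other neurons.

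For DIV7 minus DIV3 the difference was -8.41 for Nrgn, -5.59 for Grin2b, -3.99 for Bdnf and -4.40 for Junb. Calls for Grin2b and Bdnf were lost without DIV7 replicate 1 and without DIV7 replicate 2, and that for Junb without DIV7 replicate 2. Without the members with UMIs of other neurons the Nrgn value turned to 2.58 ± 7.49 (SE) (adjusted p = 0.934) and the Grin2b call was lost; all 21 Nrgn UMIs of the DIV3 library in the fit lay in 2 such members.

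For the slope per day, among immediate early genes it was -0.76 for Fos, -0.93 for Npas4, -0.85 for Nr4a1, -0.95 for Junb and -0.81 for Bdnf. The Fos slope lost its call in 10 of 15 alternatives. Among synaptic genes it was -1.23 for Grin2b, -1.12 for Grin2a, -1.17 for Nrgn, -0.23 for Syn1 and -0.43 for Camk2b. It was -0.94 for Dcx and -0.67 for Nrp1, and it was positive for Slc17a6 (0.27) and Diablo (0.45). Without the DIV1 library Grin2b, Bdnf and Nrgn kept their calls and the other 11 lost them. Without the members with UMIs of other neurons Npas4, Nr4a1, Bdnf, Grin2a, Camk2b and Nrp1 lost theirs. In the DIV1 library 33 of 102 members held such UMIs; their part in these differences was not tested beyond that alternative.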

How the results depend on the processing

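Counts of called genes moved with the processing in each comparison, and the cause of each shift below was not tested. For DIV7 against DIV3 (21 genes) the count was 11 with DESeq2, 163 with no low-count filter, 50 with a stricter member rule, 202 with a stricter cell filter, 34 with top doublet scores removed, 85 with only the libraries of both days and 48 to 160 with 1 library left out. With the replicate block it was 567. Alternatives chosen after seeing the data gave 12 with sums of at least 5 cells, 130 with these sums and the replicate block, and 66 without members with UMIs of other neurons. For the trend over days (511 genes) the count was 294 with DESeq2, 1006 with no filter, 306 without members with UMIs of other neurons and 29 to 701 with 1 library left out, the lowest without DIV1. Against pyramidal-type neurons (3361) it was 1716 with the stricter cell filter and 2387 to 3801 with 1 library left out, and against dentate-type neurons (2440) it was 1437 and 1650 to 2405. For the DIV7 minus DIV3 interaction (52) it was 30 with total-count scaling, 19 with DESeq2, 136 with no filter, 115 with the stricter cell filter, 118 with top doublet scores removed, 173 without members with UMIs of other neurons and 4 to 107 with 1 library left out. For the slope interaction (1171) it was 638 with DESeq2, 434 without members with UMIs of other neurons and 47 to 1151 with 1 library left out. The correlation of the share among neuron-class cells with day (0.752) was 0.843 under the stricter rule, 0.832 after thinning and 0.657 to 0.951 with 1 library left out, and that of the share among all cells (-0.357) was -0.559 to 0.668. Among single genes 1 value reversed, the Nrgn interaction, at 2.58 without members with UMIs of other neurons. With the replicate block, of the genes named, Ndnf, Clstn2, Islr and Diablo gained a call for DIV7 against DIV3, and Dnm1, Syn2 and Sncb lost theirs over days; it changed no other call given above for these tests over days. Under the stricter cell filter the counts of genes lower than in pyramidal-type neurons were 11 in place of 17 for the reelin pathway, 4 in place of 10 for death and survival, 14 in place of 25 each for guidance, postsynaptic and immediate early genes, 13 in place of 20 for presynaptic genes and 7 in place of 19 for ion channels. DIV3 values rest on 19 and 8 members and those of DIV7 replicate 2 on 18.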
